A study of Homo sapiens with 28 samples.

Results

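The 8 genes FKBP5, FKBP4, HSP90AA1, HSP90AB1, PTGES3, STIP1, DNAJA1 and HSPA8 of the chaperone machine that matures steroid receptors were followed across all treatment groups of a total RNA sequencing series in LNCaP cells. The 8 members were taken by gene symbol from a table of 61815 human genes, and all 8 passed the filter on low counts in both experiments. LNCaP is an androgen-responsive human prostate cancer line. Before treatment, cells of every group were kept for 72 h in medium with charcoal-stripped serum, from which steroids have been removed. In the first experiment cells received vehicle (DMSO), Senexin B at 1 µM, R1881 at 0.1 nM, or R1881 at 0.1 nM with Senexin B at 1 µM for 24 h, with 3 libraries a group. In the second they received vehicle, SNX631 at 500 nM, R1881 at 1 nM, or R1881 at 1 nM with SNX631 at 500 nM for 72 h, with 4 libraries a group. R1881 is a synthetic androgen, and Senexin B and SNX631 inhibit CDK8 and CDK19, the Mediator kinases, which act on transcription as part of a module of the Mediator complex. Doses are those of the labels, and the text of the study gives a higher one for Senexin B. The experiments differ in time, androgen dose, inhibitor and run, so these cannot be told apart in a comparison between them.

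Steroid receptors are clients of HSP90. A newly made receptor is first bound by HSP70 and its J-domain partners, is passed to HSP90 through an adaptor that binds both, and is then held ready for hormone in a complex of HSP90, p23 and an immunophilin. In prostate cells FKBP5 is a well known androgen-responsive gene, and in many tissues it also responds to glucocorticoids.

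Total counts ranged from 9846595 to 33809419 a library, and the deepest was vehicle replicate 3 at 24 h, with no other library above 15248512. Levels below are counts-per-million (CPM) values scaled between libraries, and their SDs are over 3 libraries at 24 h and 4 at 72 h. Of the luminal markers listed, KRT8, KRT18, FOLH1 and HOXB13 were present in every library, between 273 CPM for the lowest KRT18 library and 1530.2 CPM for the highest FOLH1 library. TMPRSS2, also on that list, ran from 14.1 to 267 CPM and was lower without R1881. The rest of the list is not reported here. Of 9 markers of other cells, CD3E and KRT5 were at 0 in all 28 libraries, and PTPRC, PECAM1 and TP63 were at 3 counts or fewer in each. The 9 summed to between 10.6 and 36.6 CPM, mostly COL1A1, and were lower with R1881 (17.3 to 18.6 CPM at 24 h and 18.7 to 26 at 72 h) than with vehicle (28.3 to 31.3 and 33.9 to 36.6). Senexin B libraries were below vehicle at 22.6 to 24.7 CPM, and below R1881 alone at 10.6 to 12.5 CPM when R1881 was present. The sums were 30.9 to 33.9 CPM with SNX631, which met the vehicle range at its lower end, and 14.5 to 17.5 CPM with R1881 and SNX631, below R1881 alone. The part of these markers in the results was not tested. In bulk RNA, fewer cells of a type and less RNA per cell cannot be told apart. A change is said to have passed at an edgeR quasi-likelihood false discovery rate (FDR) under 0.01, and to have been called when the fold change was also over 1.5, the limits used in the study.

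Together the members held 0.905% to 1.08% of all counts, depending on the library. Their order can be read only per length, so CPM was divided by the kilobases of exon in GENCODE 29. Per kilobase, HSP90AB1 was the highest member in all 8 groups, with group means from 726 to 824 CPM per kb, followed by HSP90AA1 (531 to 665) and HSPA8 (497 to 559). These are the constitutive HSP90-beta, the inducible HSP90-alpha and the constitutive HSP70 of the cytosol. DNAJA1 and PTGES3 followed at 121 to 169 and 97.3 to 177 CPM per kb and exchanged places between groups, then FKBP4 (78.5 to 100.5), STIP1 (56.7 to 75.6) and last FKBP5. FKBP5 stayed last in every group, although its mean moved from 3.74 CPM per kb with vehicle at 24 h to 71.8 with R1881 and SNX631 at 72 h. Exon lengths are those of all annotated isoforms together, which lowers the value of a gene with long rare exons, and FKBP5 has 10628 exonic bases against 2980 for HSP90AB1. HSP90AA1 has 5248. Before the division it had 1.23 to 1.54 counts for each HSP90AB1 count, so the order of these HSP90 genes depends on the lengths used.

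The bases before the gene starts are shown because members that rose together with SNX631 differ in them. So do the members that passed and those that did not pass with R1881 alone. Any part of these bases in the changes was not tested. RefSeq on GRCh38.p14 gave start sites for 7 of the 8 members, with no entry used for FKBP4, and 250 bases before each start were searched on both strands. The heat shock element, the site of heat shock factors, was searched as 3 units (GAANNTTCNNGAA or TTCNNGAANNTTC) and as 2 units (GAANNTTC or TTCNNGAA, which every 3-unit match contains). The 3-unit form was found in 0.441% of 35116 promoters of that length, and before 0.557% of 27305 genes with any of their starts counted. It was found before 3 members, once for HSP90AA1 and at 2 places each for HSP90AB1 and HSPA8. It is in capitals in the stretches below, each written 5′ to 3′ on the strand of the gene.
HSP90AA1, chr14:102087100-102087152, minus strand: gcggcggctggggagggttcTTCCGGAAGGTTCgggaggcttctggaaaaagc
HSP90AB1, chr6:44247758-44247863, plus strand: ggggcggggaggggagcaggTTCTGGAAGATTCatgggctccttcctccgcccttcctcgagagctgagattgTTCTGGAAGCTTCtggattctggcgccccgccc
HSPA8, chr11:123062159-123062386, minus strand: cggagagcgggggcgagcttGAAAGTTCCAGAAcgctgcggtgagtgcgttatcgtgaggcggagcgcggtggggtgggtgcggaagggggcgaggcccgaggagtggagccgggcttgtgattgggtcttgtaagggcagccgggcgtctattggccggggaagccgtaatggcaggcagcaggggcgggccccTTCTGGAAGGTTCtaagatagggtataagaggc
Counted from the start site, the matches began at -88 for 1 of the 2 starts of HSP90AA1, at -165 and -112 for 1 of the 3 starts of HSP90AB1, and at -230 and -55 for the single start of HSPA8.

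DNAJA1 held a 2-unit match only, a form present in 11.6% of the promoters and before 13.96% of the genes. FKBP5, PTGES3 and STIP1 held neither form before any of their starts. The androgen response element was searched as the palindrome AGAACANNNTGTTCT and as the looser GNACANNNTGTNC. These were found in 0.00285% and 0.327% of promoters (before 0.00366% and 0.399% of genes) and before none of the 7 members. FKBP5, the member with the largest androgen change, is therefore shown at both of its starts, and PTGES3, the next largest, at its single start, all in lower case because no motif searched was found.
FKBP5, chr6:35688916-35689165, minus strand: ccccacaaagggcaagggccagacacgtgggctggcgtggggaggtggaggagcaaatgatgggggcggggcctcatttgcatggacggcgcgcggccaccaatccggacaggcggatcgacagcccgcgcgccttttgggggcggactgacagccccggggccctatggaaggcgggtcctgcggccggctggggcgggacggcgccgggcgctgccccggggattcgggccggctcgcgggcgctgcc
FKBP5, chr6:35728584-35728833, minus strand: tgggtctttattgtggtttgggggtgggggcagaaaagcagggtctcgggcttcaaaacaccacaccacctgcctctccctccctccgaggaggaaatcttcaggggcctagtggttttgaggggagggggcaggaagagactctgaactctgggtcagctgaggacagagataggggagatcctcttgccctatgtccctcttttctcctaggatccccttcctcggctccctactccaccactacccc
PTGES3, chr12:56688285-56688534, minus strand: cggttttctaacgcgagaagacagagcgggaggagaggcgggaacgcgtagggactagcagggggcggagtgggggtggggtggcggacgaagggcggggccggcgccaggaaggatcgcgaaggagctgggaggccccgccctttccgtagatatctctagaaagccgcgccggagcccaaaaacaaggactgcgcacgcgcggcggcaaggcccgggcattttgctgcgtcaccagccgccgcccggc
A match is a run of letters and not a measured site, and the absence of one says only that these letters are not in these windows.

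The first comparison asked how androgen moved the members without inhibitor. FKBP5 rose strongly in both experiments, and 4 more members (PTGES3, FKBP4, STIP1 and DNAJA1) rose by under 1.5-fold, while HSPA8, HSP90AA1 and HSP90AB1 did not pass. At 24 h 5 of 8 members passed and all 5 were higher, where 26.3% of 15948 genes tested passed higher and 22.1% lower. FKBP5 was the single member called, where 9.81% of genes were called higher. At 72 h the same 5 members passed, all higher, against 27.6% of 16074 genes higher and 24.6% lower, and FKBP5 was again the single member called, against 9.7% called higher. The median log2 change of the 8 members was 0.17 at 24 h and 0.16 at 72 h, beside -0.02 and -0.01 over all genes tested. The study calls its RNA sequencing replicates biological, and the sources used here do not say whether each was a separate culture. The p values measure the spread between these libraries, which was small (common coefficient of variation by edgeR 2.72% at 24 h and 2.38% at 72 h). With so small a spread, changes of a few percent could pass. Whether they would recur in separate cultures was not tested.

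**Figure D1:**
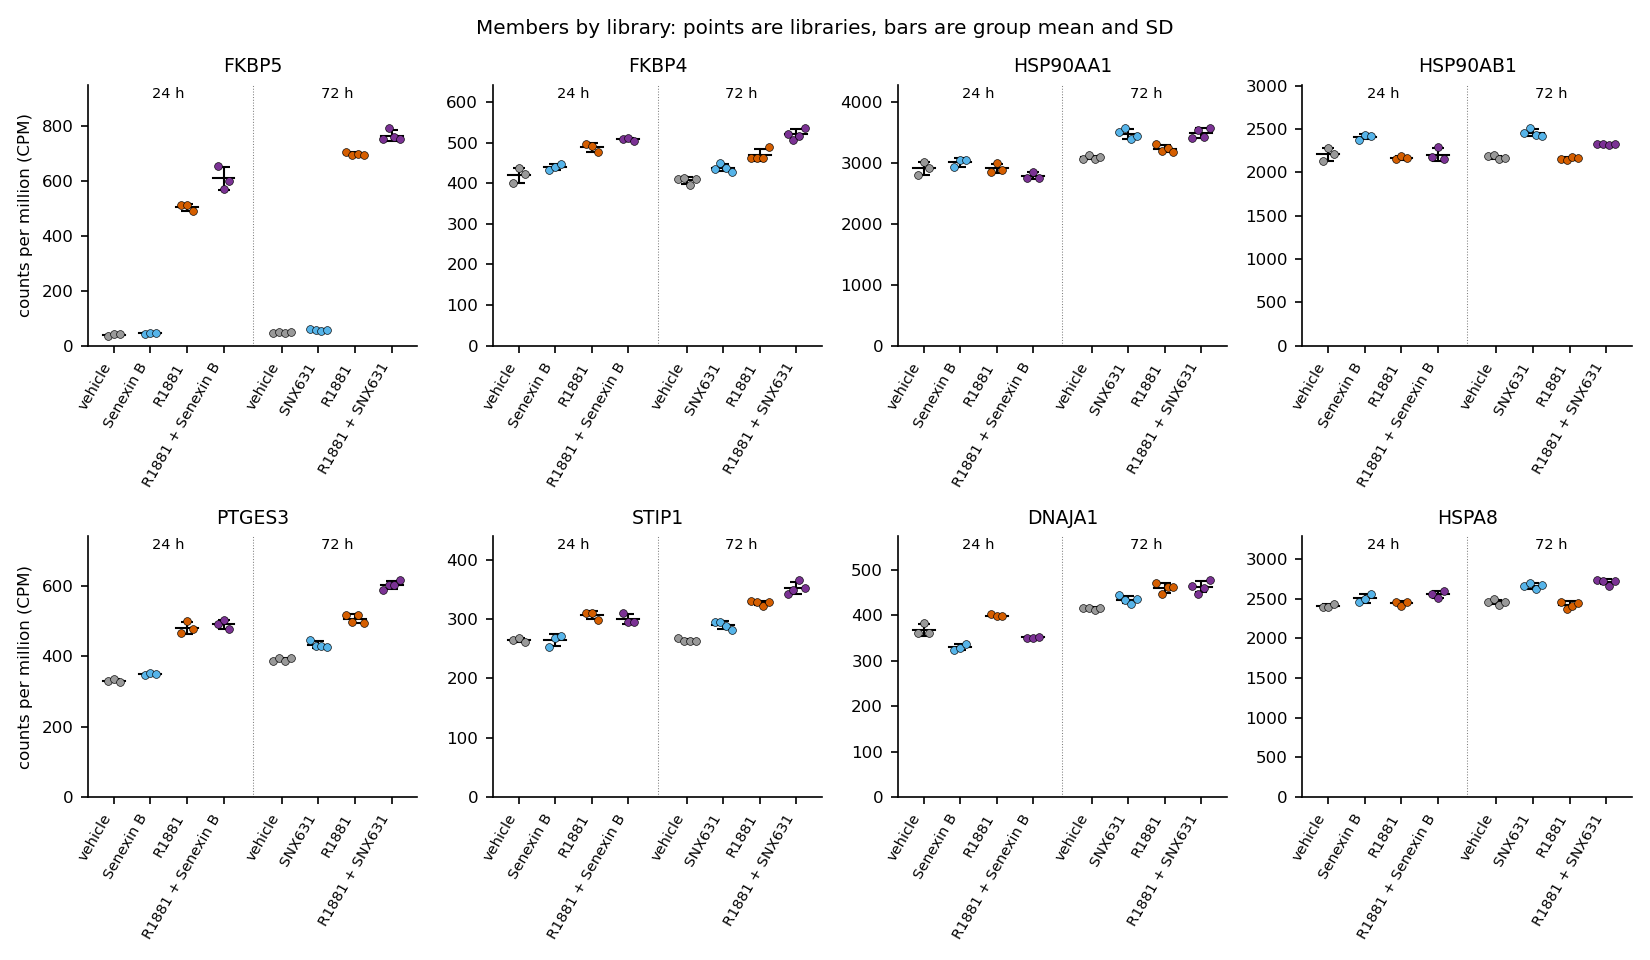
Level of each member in every library, in CPM on a linear axis from 0, by treatment group at 24 h (left of the dotted line) and 72 h. Points are libraries and black bars the mean and SD of 3 or 4 libraries. FKBP5 lies below 60 CPM in every library without R1881 and above 480 CPM in every library with it, and the other members differ by small steps.

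FKBP5 (ENSG00000096060.15, chr6:35573585-35728583, minus strand, GRCh38) encodes FKBP51, an immunophilin that binds HSP90 in receptor complexes and is known to lower hormone binding by the glucocorticoid receptor. At 24 h its level was 35.6, 41.8 and 41.6 CPM in the vehicle libraries and 510.3, 509.7 and 489 CPM with R1881. The lowest R1881 library was far above the highest vehicle library, and replicate 1 was the low library of the vehicle group. The fold change was 12.6, a log2 change of 3.65 ± 0.05 (SE, edgeR FDR 4.71e-33). At 72 h the vehicle libraries held 45.2, 48.8, 46.9 and 49.4 CPM and the R1881 libraries 705, 693, 698 and 693 CPM. Again the groups were far apart, and the 4 R1881 libraries lay closer together (SD 5.53 CPM) than those at 24 h (SD 12.1 CPM). The log2 change was 3.86 ± 0.03 (SE, edgeR FDR 4.63e-46), a 14.5-fold rise. By size, the change ranked 78 of 15948 genes from the highest at 24 h and 81 of 16074 at 72 h.

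PTGES3 (ENSG00000110958.16, chr12:56663341-56688408, minus strand) encodes p23, the small co-chaperone that closes and stabilises the HSP90 dimer around a receptor. It held 328, 337 and 327 CPM with vehicle and 466, 499 and 476 CPM with R1881 at 24 h. All R1881 libraries were above all vehicle libraries, and the fold change of 1.46 fell just under the limit for a call (log2 0.55 ± 0.03, SE, edgeR FDR 5.07e-16). At 72 h the levels were 386, 394, 386 and 394 CPM with vehicle and 516, 498, 517 and 493 CPM with R1881. The groups did not overlap and the fold change was 1.28 (log2 0.36 ± 0.02, SE, edgeR FDR 1.14e-16).

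FKBP4 (ENSG00000004478.8, chr12:2794953-2805423, plus strand) encodes FKBP52, the paralog of FKBP51 that favours receptor activity. It held 401, 436 and 421 CPM with vehicle and 497, 492 and 477 CPM with R1881 at 24 h, so the groups did not overlap. The rise was 1.17-fold (log2 0.22 ± 0.03, SE, edgeR FDR 2.22e-07). At 72 h the vehicle libraries held 409, 412, 395 and 410.4 CPM and the R1881 libraries 463, 462, 462 and 490.1 CPM. Replicate 3 was the low library of the vehicle group and replicate 4 the high one of the R1881 group, and the groups stayed apart with a 1.14-fold rise (log2 0.19 ± 0.02, SE, edgeR FDR 8.43e-09). Exons of FKBP4 overlap antisense genes on the other strand that held at most 36.3 counts in a library.

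STIP1 (ENSG00000168439.17, chr11:64185272-64204543, plus strand) encodes HOP, the adaptor that binds HSP70 and HSP90 at once. Its levels at 24 h were 265, 269 and 262 CPM with vehicle and 310.2, 309 and 299 CPM with R1881. The groups were apart, with a fold change of 1.16 (log2 0.22 ± 0.03, SE, edgeR FDR 1.89e-06). At 72 h vehicle gave 268, 263, 262 and 263 CPM and R1881 329.8, 328, 322 and 328 CPM, again apart, with a fold change of 1.22 (log2 0.29 ± 0.02, SE, edgeR FDR 3.6e-13).

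DNAJA1 (ENSG00000086061.16, chr9:33025211-33039907, plus strand) encodes an HSP40, a J-domain protein that loads clients onto HSP70. It held 359.8, 382 and 360.2 CPM with vehicle and 402, 398 and 397 CPM with R1881 at 24 h. The gap between the groups was set by replicate 2 of vehicle, and the rise was 1.09-fold (log2 0.13 ± 0.03, SE, edgeR FDR 0.0008). Without replicate 3 of vehicle, the most deeply sequenced library, it was 0.10 on the log2 scale and did not pass (edgeR FDR 0.0165). At 72 h the levels were 415, 416, 411 and 416 CPM with vehicle and 471, 446, 462 and 462 CPM with R1881, which did not overlap (log2 0.13 ± 0.02, SE, edgeR FDR 6.34e-06). With library totals alone as the scaling DNAJA1 did not pass in either experiment (edgeR FDR 0.165 at 24 h and 0.233 at 72 h).

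HSPA8 (ENSG00000109971.14, chr11:123057489-123063230, minus strand) encodes HSC70. Its levels lay between 2399 and 2432 CPM with vehicle and between 2408 and 2460.2 CPM with R1881 at 24 h, and between 2424 and 2498 and between 2363 and 2459 CPM at 72 h. The groups overlapped in both experiments, with log2 differences of 0.02 (95% interval -0.03 to 0.08) and -0.04 (-0.07 to -0.002). HSP90AA1 (ENSG00000080824.19, chr14:102080738-102139699, minus strand) differed by 0.01 (-0.06 to 0.07) at 24 h and by 0.05 (0.01 to 0.09, edgeR FDR 0.0129) at 72 h. The latter passed by DESeq2 (adjusted p 0.00131) and without replicate 4 of R1881 (edgeR FDR 0.00804). HSP90AB1 (ENSG00000096384.20, chr6:44246166-44253888, plus strand) differed by -0.02 in both (-0.08 to 0.04 and -0.06 to 0.01). The differences of all 3 genes lay lower with library totals alone as the scaling, and those of HSP90AA1 in both experiments and HSPA8 at 24 h changed direction. With these totals, which moved the median of all genes by -0.08 on the log2 scale at 24 h and -0.10 at 72 h, HSP90AA1 was at -0.07 and -0.05, HSP90AB1 at -0.10 and -0.13, and HSPA8 at -0.05 and -0.14. With that scaling HSP90AB1 passed lower at 24 h and all 3 genes at 72 h. Exons of HSP90AA1 overlap those of WDR20 on the other strand, which held 186 to 810 counts a library against at least 29429 for HSP90AA1.

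**Figure D2:**
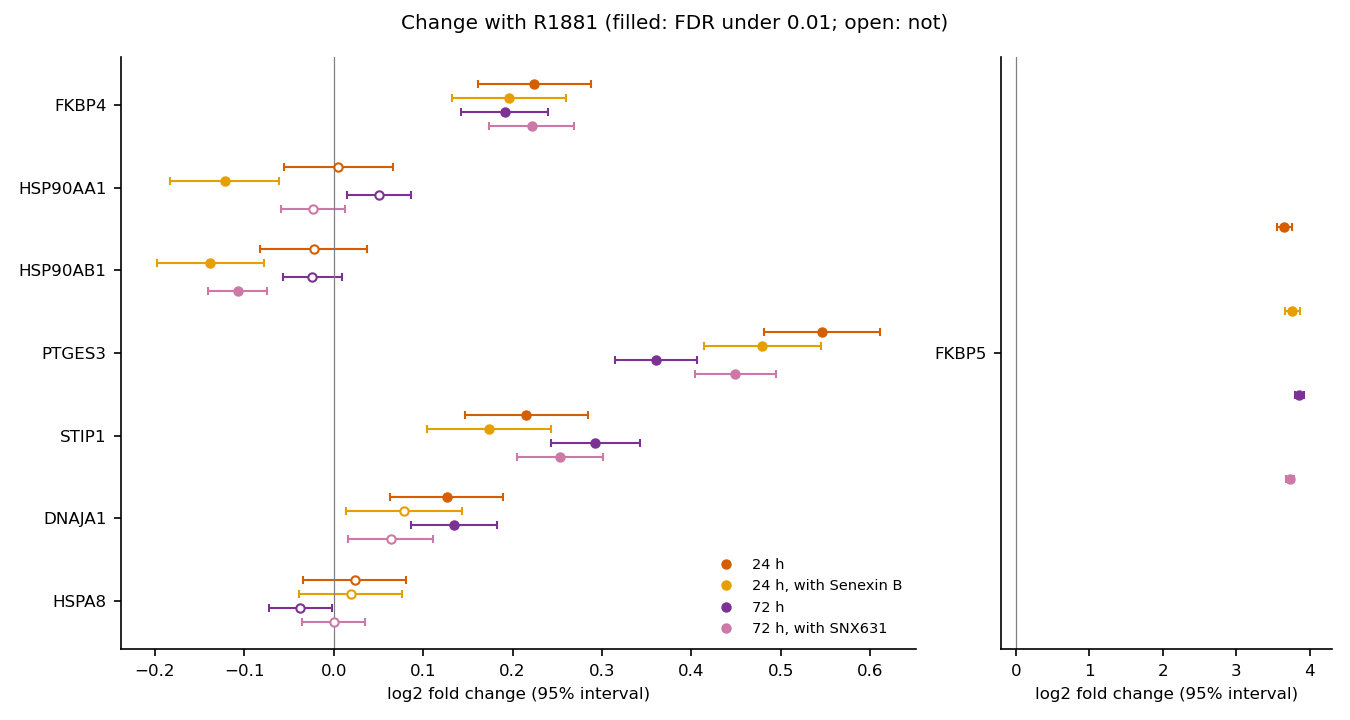
Log2 fold change with R1881 for each member, with its 95% interval, in the 4 comparisons that differ in time and in the presence of inhibitor. FKBP5 has its own panel with a wider axis. Filled points passed at an FDR under 0.01. FKBP5 lies between 3.65 and 3.86 in all 4, PTGES3 between 0.36 and 0.55, and FKBP4 and STIP1 between 0.17 and 0.29.

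With inhibitor present, androgen raised FKBP5 about as far. In the Senexin B groups 6 of 8 members passed, 4 higher and 2 lower, against 26.3% of genes passing higher and 21.2% lower, and FKBP5 was the 1 member called (9.97% of genes called higher). In the SNX631 groups 5 passed, 4 higher and 1 lower, against 29.8% and 27.5%, and FKBP5 was the 1 member called (10.1% called higher). FKBP5 rose 13.5-fold in the presence of Senexin B (log2 3.76 ± 0.05, SE, edgeR FDR 5.42e-33) and 13.2-fold in the presence of SNX631 (log2 3.73 ± 0.03, SE, edgeR FDR 4.5e-46). PTGES3 rose by 0.48 and 0.45 on the log2 scale, FKBP4 by 0.20 and 0.22, and STIP1 by 0.17 and 0.25, the first of which did not pass with library totals alone (edgeR FDR 0.011). DNAJA1, with 0.08 (edgeR FDR 0.0345) and 0.06 (edgeR FDR 0.0162), did not pass. The second did pass by DESeq2 (adjusted p 0.00266) and without replicate 2 of R1881 with SNX631 (edgeR FDR 0.00404).

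The 2 cytosolic HSP90 genes went the other way in these comparisons. HSP90AB1 fell with R1881 in the presence of Senexin B, from 2379, 2434 and 2422 CPM to 2182, 2290.3 and 2151 CPM (log2 -0.14 ± 0.03, SE, edgeR FDR 0.000146). The groups did not overlap. It also fell in the presence of SNX631, from 2455, 2513, 2438 and 2422 CPM to 2327, 2323, 2319 and 2327 CPM, with a clear gap between the groups (log2 -0.11 ± 0.02, SE, edgeR FDR 2.79e-07). HSP90AA1 passed lower with Senexin B (2930.2, 3058 and 3048 CPM to 2763, 2854 and 2747 CPM, log2 -0.12, edgeR FDR 0.000818) and not with SNX631 (log2 -0.02, 95% interval -0.06 to 0.01). With library totals alone HSP90AA1 did pass lower with R1881 in the presence of SNX631 (log2 -0.13, edgeR FDR 7.21e-09), and so did HSPA8 (log2 -0.11, edgeR FDR 3.32e-07). A fall in these comparisons is not by itself a difference from the comparison without inhibitor, and that difference was tested as an interaction.

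No member passed the interaction of androgen and inhibitor, in which 2.09% of genes passed at 24 h and 7.09% at 72 h by edgeR. At an unadjusted p under 0.05 there were 2 members at 24 h and 5 at 72 h, and by DESeq2 0 passed at 24 h and 1 at 72 h. No share of all genes was taken at an unadjusted p or by DESeq2, so these counts cannot be read against one. HSP90AB1 came nearest at 72 h, with a log2 value of -0.08 ± 0.02 (SE, edgeR FDR 0.0106). Its value at 24 h was -0.12 ± 0.04 (SE, edgeR FDR 0.116). It passed at 72 h by DESeq2 (adjusted p 0.000175), with library totals alone (edgeR FDR 0.00331) and without replicate 4 of SNX631 (edgeR FDR 0.00995), so it sits at the limit. HSP90AA1 had interactions of -0.13 (edgeR FDR 0.0862) and -0.07 (edgeR FDR 0.044). For FKBP5 the interaction was 0.11 (95% interval -0.04 to 0.26) at 24 h and -0.13 (-0.22 to -0.03, edgeR FDR 0.0606) at 72 h, so its androgen rise differed between cells with and without inhibitor by at most 0.26 on the log2 scale within these intervals.

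The next comparison asked what the CDK8/19 inhibitors did to the members themselves. SNX631 at 72 h raised 7 of 8 members by small steps, each by less than 1.2-fold, both without and with R1881. Senexin B at 24 h moved fewer: HSP90AB1 was higher and DNAJA1 lower without R1881, and FKBP5 was higher and DNAJA1 lower with it. None was called in any of the 4 comparisons, where 3.79% of genes were called with Senexin B, 3.12% with Senexin B and R1881, 4.77% with SNX631 and 4.12% with SNX631 and R1881. The 7 members that passed with SNX631 compare with 14.4% of 16074 genes that passed higher, and the 7 with SNX631 and R1881 with 17.8%. These shares are over all genes tested and are not matched for level. By size the changes of the 7 were ordinary. With SNX631, 40.8% (FKBP4) to 72.2% (FKBP5) of genes had a smaller absolute change. With SNX631 and R1881 it was 30.9% (HSP90AB1) to 65.9% (PTGES3). With Senexin B, 1 passed higher and 1 lower, against 13.5% and 11.7% of genes, and with Senexin B and R1881 also 1 and 1, against 12.7% and 9.99%. The Senexin B count depended on the tool, and FKBP4, PTGES3 and HSPA8 also passed higher by DESeq2 (adjusted p 0.00611, 0.00457 and 0.00225) and, without replicate 2 of R1881 at 24 h, by edgeR (FDR 0.00682, 0.00262 and 0.00925). FKBP4 passed as well without replicate 2 of vehicle (edgeR FDR 0.00585), and PTGES3 without replicate 1 of R1881 (0.00805) or replicate 1 of R1881 with Senexin B (0.00888).

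**Figure D3:**
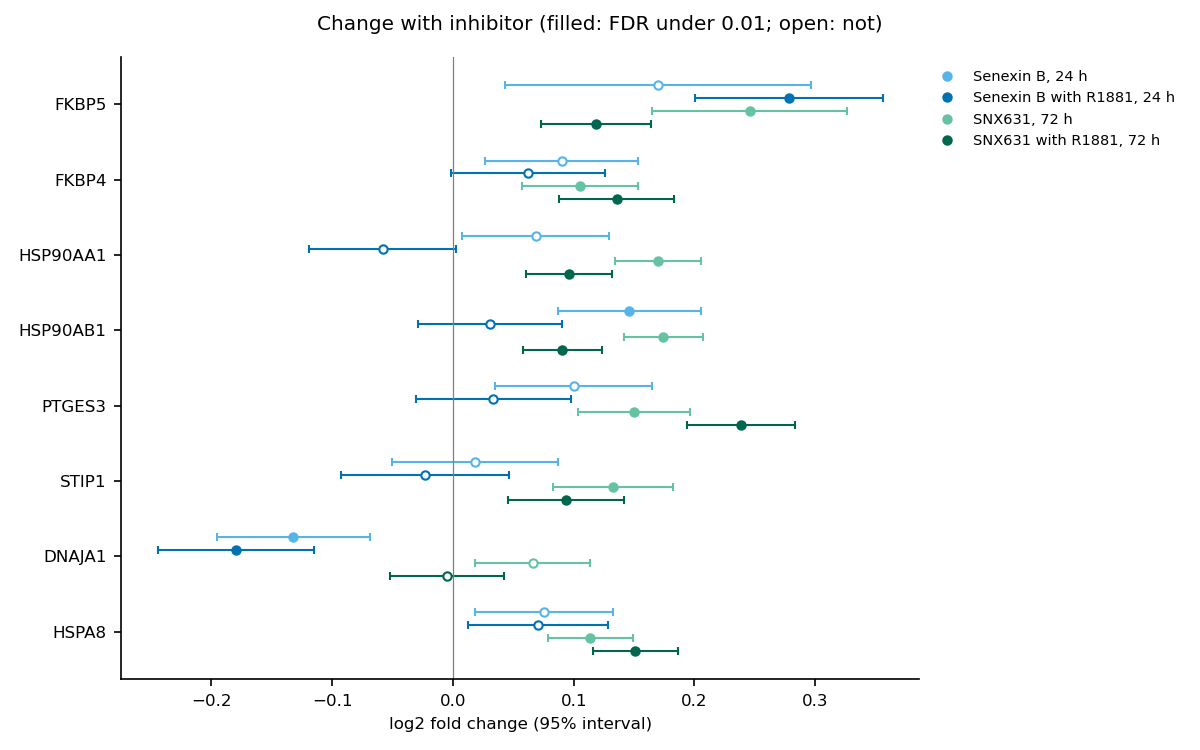
Log2 fold change with inhibitor for each member, with its 95% interval, for Senexin B at 24 h and SNX631 at 72 h, without and with R1881. Filled points passed at an FDR under 0.01. With SNX631 all members except DNAJA1 have filled points above 0, and with Senexin B DNAJA1 has filled points below 0.

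FKBP5 was raised by SNX631 from 45.2 to 49.4 CPM with vehicle to 59.5, 56.4, 54.2 and 56.3 CPM, groups that did not overlap (log2 0.25 ± 0.04, SE, edgeR FDR 4.62e-06). On top of R1881 the 4 libraries rose from 693 to 705 CPM to 751, 791, 759 and 752 CPM, a step of 0.12 ± 0.02 on the log2 scale (SE, edgeR FDR 3.59e-05). Senexin B gave 44.1, 45.1 and 44.6 CPM, all above the vehicle libraries, yet the change did not pass (log2 0.17 ± 0.06, SE, edgeR FDR 0.0323). With R1881 and Senexin B the level was 654, 569.8 and 599 CPM, a wide group that still lay above all R1881 libraries (log2 0.28 ± 0.04, SE, edgeR FDR 9.25e-07). The highest FKBP5 levels of each experiment were thus in cells that had androgen and inhibitor together.

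PTGES3 rose with SNX631 to 447, 430.1, 429.9 and 425 CPM (log2 0.15 ± 0.02, SE, edgeR FDR 1.65e-06). With R1881 and SNX631 it reached 589, 602, 601 and 618 CPM, its highest group, without overlap with R1881 alone (log2 0.24 ± 0.02, SE, edgeR FDR 2.44e-11). Its Senexin B libraries, at 347, 352 and 348 CPM, lay above vehicle but did not pass (log2 0.10 ± 0.03, SE, edgeR FDR 0.0142), and with R1881 the groups overlapped (log2 0.03, 95% interval -0.03 to 0.10).

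HSP90AB1 and HSP90AA1 rose together with SNX631, by 0.17 each on the log2 scale. HSP90AB1 moved from 2187, 2197, 2150.0 and 2166 CPM to 2455, 2513, 2438 and 2422 CPM, and HSP90AA1 from 3068, 3131, 3063 and 3105 CPM to 3516, 3576, 3396 and 3439 CPM. In neither gene did the groups overlap (edgeR FDR 2.66e-11 and 4.64e-10). With R1881 the steps were smaller, 0.09 and 0.10 (edgeR FDR 1.5e-05 and 2.47e-05). Senexin B raised HSP90AB1 from 2132, 2282 and 2218 CPM to 2379, 2434 and 2422 CPM (log2 0.15 ± 0.03, SE, edgeR FDR 0.000171), with no overlap. HSP90AA1 with Senexin B overlapped vehicle (log2 0.07, edgeR FDR 0.0719), as both genes did in the comparison with R1881 (HSP90AB1 0.03 and HSP90AA1 -0.06). With library totals alone HSP90AA1 passed lower in the latter comparison (log2 -0.09, edgeR FDR 0.00775).

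HSPA8 rose with SNX631 from between 2424 and 2498 CPM to 2663, 2700.4, 2614 and 2666 CPM (log2 0.11 ± 0.02, SE, edgeR FDR 1.66e-06). With R1881 it rose from between 2363 and 2459 CPM to 2739, 2719, 2661 and 2726 CPM, again apart (log2 0.15 ± 0.02, SE, edgeR FDR 4.12e-09). Under Senexin B it was 0.08 and 0.07 higher on the log2 scale, which did not pass (edgeR FDR 0.0358 and 0.0541). FKBP4 rose by 0.11 with SNX631 and 0.14 with SNX631 and R1881, and STIP1 by 0.13 and 0.09. The last of these did not pass without replicate 3 of R1881 with SNX631 (log2 0.07, edgeR FDR 0.0198) or with library totals alone (log2 0.06, edgeR FDR 0.033).

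DNAJA1 was the member that differed. With Senexin B it fell from 359.8, 382 and 360.2 CPM to 325, 329 and 337 CPM (log2 -0.13 ± 0.03, SE, edgeR FDR 0.00111), and with R1881 from 402, 398 and 397 CPM to 349.9, 350.3 and 353 CPM (log2 -0.18 ± 0.03, SE, edgeR FDR 4.09e-05). Both pairs of groups were apart. The first fall did not pass without replicate 2 of vehicle, its highest library (log2 -0.10, edgeR FDR 0.0202). With SNX631 DNAJA1 was 0.07 higher (edgeR FDR 0.0257), and with R1881 and SNX631 it overlapped R1881 alone, at 464, 448, 460.2 and 478 CPM against 471, 446, 462 and 462 CPM.

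The effects of the experiments were set against each other in a fit of all 28 libraries, where compound, time, androgen dose and run differ at once. The androgen change of PTGES3 was smaller at 72 h than at 24 h by 0.18 ± 0.04 on the log2 scale (SE, edgeR FDR 0.000453), the 1 member that passed, against 7.54% of 16672 genes. That of FKBP5 was larger by 0.21 ± 0.06 (SE, edgeR FDR 0.0154), which did not pass. It passed without replicate 1 of vehicle at 24 h, at 0.25 (edgeR FDR 0.00455), and without replicate 1 or 2 of R1881 with Senexin B (edgeR FDR 0.00682 and 0.00749). Between the inhibitors without R1881, DNAJA1 passed with a difference of 0.20 ± 0.04 (SNX631 minus Senexin B, SE, edgeR FDR 0.000414), against 2.21% of genes. With R1881 present 3 members passed, against 2.72% of genes. They were PTGES3 with 0.21 ± 0.04 (SE, edgeR FDR 0.00015), DNAJA1 with 0.18 ± 0.04 (SE, edgeR FDR 0.0012) and HSP90AA1 with 0.16 ± 0.03 (SE, edgeR FDR 0.00106). FKBP5, at -0.15 (edgeR FDR 0.0299), passed without replicate 2 of R1881 with Senexin B, at -0.20 (edgeR FDR 0.00286). For FKBP4 and HSP90AB1 the differences between inhibitors without R1881 were 0.02 (95% interval -0.06 to 0.09) and 0.03 (-0.03 to 0.09).

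Both paralog pairs were also read as ratios of counts within a library, which do not depend on the scaling between libraries. FKBP51 and FKBP52 compete for the same site on HSP90, and HSP90-alpha and HSP90-beta are the inducible and constitutive forms. FKBP5 had 0.0945 ± 0.00501 counts for each FKBP4 count with vehicle and 1.03 ± 0.00598 with R1881 at 24 h (SD, n = 3), and 0.117 ± 0.00446 and 1.49 ± 0.0489 at 72 h (SD, n = 4). In the groups with androgen and inhibitor the ratio was 1.2 ± 0.0857 at 24 h and 1.47 ± 0.0665 at 72 h. The ratio was above 1 in every library with R1881 and at most 0.137 in every library without it. These are ratios of counts, and FKBP5 has more exonic bases than FKBP4 (10628 against 5180). With 3 against 3 libraries the exact two-sided permutation test cannot give a p below 0.1, which each FKBP5 to FKBP4 comparison at 24 h reached. With 4 against 4 the smallest p is 0.0286. It was reached with R1881 without and with SNX631 and with SNX631 alone (exact permutation, 0.0914 each after Benjamini-Hochberg over 16 tests). With these smallest p values no ratio could pass the adjustment at 0.05, whatever its size, so no conclusion is drawn from the adjusted values.

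**Figure D4:**
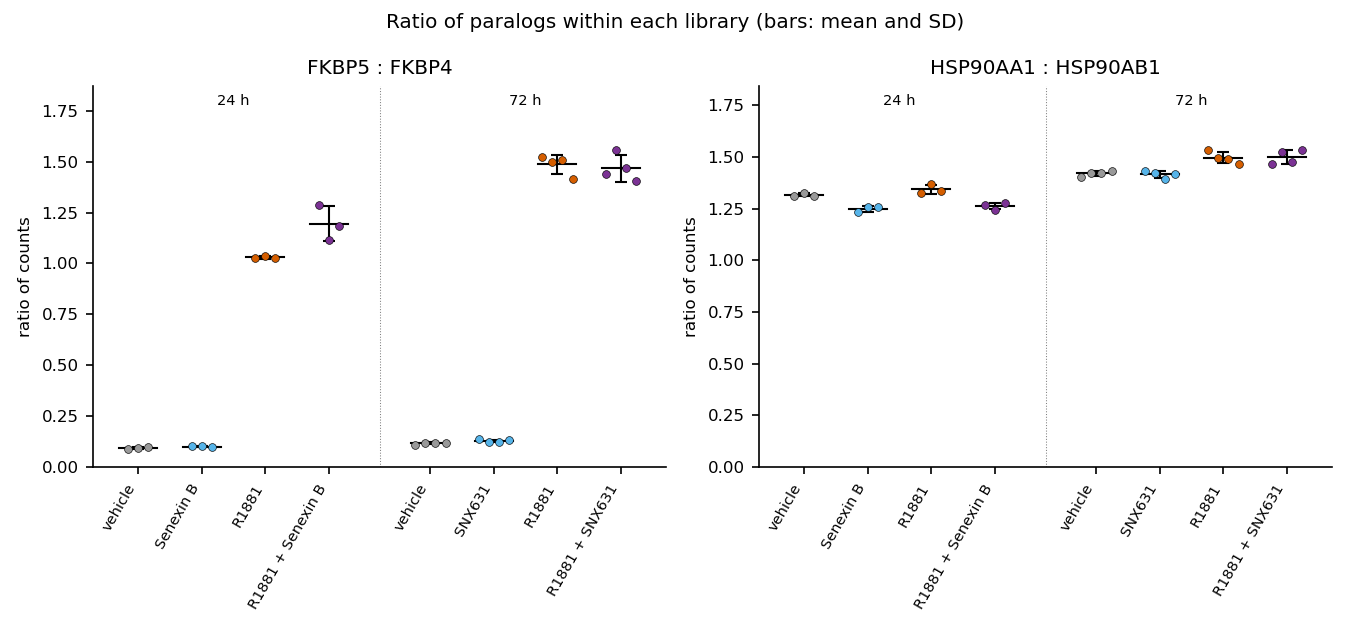
Ratio of FKBP5 to FKBP4 counts (left) and of HSP90AA1 to HSP90AB1 counts (right) in every library, on linear axes from 0, with the mean and SD of each group of 3 or 4 libraries. The left panel separates libraries with R1881 (above 1) from those without (at most 0.137), and the right panel stays between 1.23 and 1.54.

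The HSP90AA1 to HSP90AB1 ratio moved little, from 1.32 ± 0.00724 with vehicle to 1.25 ± 0.0147 with Senexin B and from 1.34 ± 0.0228 to 1.26 ± 0.0158 in the R1881 groups at 24 h (SD, n = 3). In both cases the libraries with Senexin B were all lower (exact permutation p 0.1, the smallest possible). At 72 h it was 1.42 ± 0.0131 with vehicle, 1.42 ± 0.0166 with SNX631, 1.5 ± 0.0262 with R1881 and 1.5 ± 0.0336 with both (SD, n = 4). The R1881 libraries were all above those without it (exact permutation p 0.0286, adjusted 0.0914), and those with and without SNX631 overlapped.

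Genes whose profile was nearest to FKBP5 were sought among 12053 protein-coding genes, by the root mean square difference of log2(CPM + 0.5) centred within each experiment over the 28 libraries. TMPRSS2, a serine protease gene of the luminal prostate, was nearest at 0.12. EAF2 (0.23), NCAPD3 (0.23) and GRIN3A (0.24) were also among the 5 nearest, an elongation factor partner, a condensin subunit and a glutamate receptor subunit. All 4 were also among the 5 nearest by the largest difference between group means. Without R1881, EAF2 and GRIN3A were low, down to 1.17 CPM (Senexin B, 24 h) and 0.836 CPM (vehicle, 72 h), beside at least 35.6 CPM for FKBP5. At such levels the added 0.5 makes differences smaller, so the likeness of EAF2 and GRIN3A is less certain. The log2 androgen changes of the 4 genes were 3.09 to 3.8 in the 24 h experiment and 3.8 to 4.1 in the other, beside 3.65 and 3.86 for FKBP5. The genes were picked for likeness to FKBP5 in these same libraries, so near androgen changes follow from the choice and are not a separate result. On top of R1881, Senexin B moved the 4 by 0.09 to 0.45 on the log2 scale and SNX631 by -0.10 to 0.49, beside 0.28 and 0.12 for FKBP5.

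**Figure D5:**
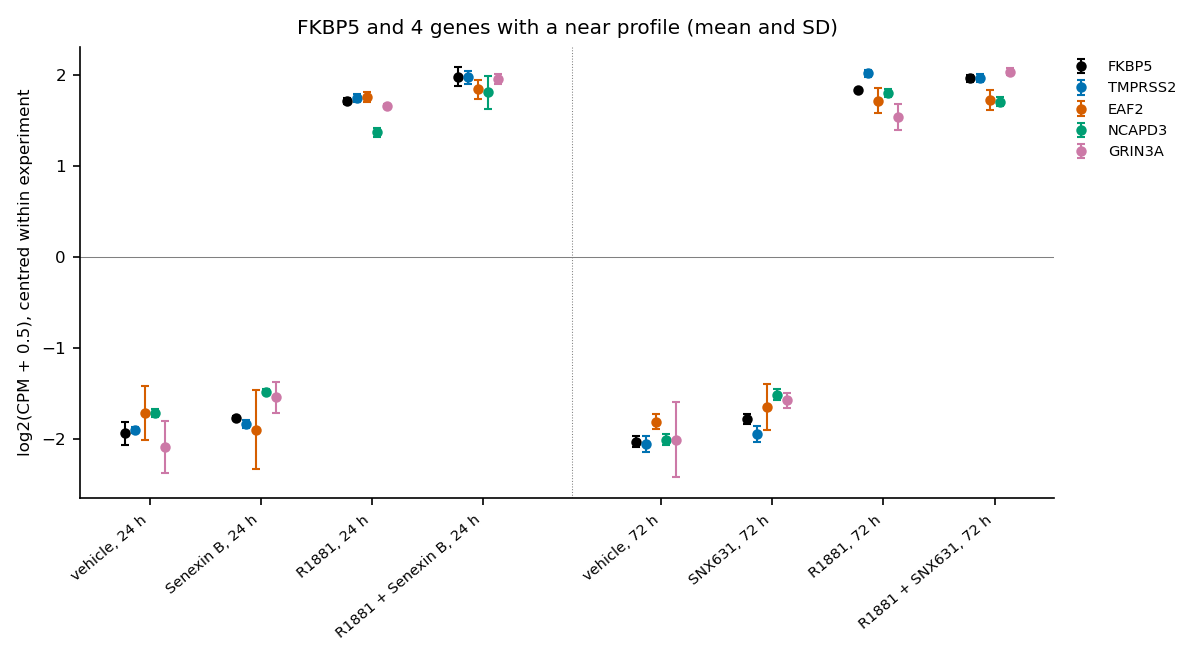
Level of FKBP5 and of TMPRSS2, EAF2, NCAPD3 and GRIN3A, as log2(CPM + 0.5) centred within each experiment, by group, with the mean and SD over 3 libraries at 24 h and 4 at 72 h. Groups without R1881 lie below 0 and groups with it above 0 for all of these genes. The 4 genes were picked for likeness to FKBP5 in these libraries, so this follows from the choice.

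The rest of the machinery was read from lists of related genes, whose counts stand beside the shares of all genes tested that passed. With androgen these shares were 26.3% higher and 22.1% lower in the first experiment, and 27.6% and 24.6% in the second. With inhibitor they were 14.4% and 12.5% for SNX631, 17.8% and 15.4% for SNX631 with R1881, 13.5% and 11.7% for Senexin B, and 12.7% and 9.99% for Senexin B with R1881. Of 24 other HSP90 co-chaperones, androgen raised 13 and lowered 3 at 24 h, and in the 72 h experiment 11 rose and 3 fell, with medians of 0.17 and 0.07 on the log2 scale beside -0.02 and -0.01 over all genes. AHSA1, the activator of the HSP90 ATPase, rose by 0.27 and 0.31, and CDC37, the adaptor for kinases, by 0.24 and 0.39. SNX631 raised 8 and lowered 2 of the 24, and 11 and 1 with R1881, while Senexin B raised 9 and lowered 1, and 6 and 0 with R1881. CACYBP, a ubiquitin ligase adaptor, and CHORDC1, an HSP90-binding protein, passed higher in all 4 inhibitor comparisons, CHORDC1 by 0.15 to 0.54 on the log2 scale. AHSA1, CDC37, CACYBP and CHORDC1 were picked after their values were seen.

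The next lists are read against the same shares of all genes. Of 14 other FKBP immunophilins 11 were tested at 24 h, where 5 passed higher and 4 lower with androgen, and 12 at 72 h, where 4 passed higher and 3 lower. None came near FKBP5, and their log2 androgen changes ran from -0.64 to 0.59 and from -0.50 to 0.60. Of 23 genes of the cytosolic HSP70 system, 7 passed higher and 4 lower of 19 tested at 24 h, and 5 and 5 of 21 at 72 h. HSPA1L, an HSP70 best known from testis, fell by 1.81 and 1.15 on the log2 scale with androgen, and HSPA4L, an HSP110-type exchange factor, by 0.77 and 1.05. HSPA1L shares sequence with HSPA1A and HSPA1B, and reads of HSPA1A and HSPA1B are near identical, so their counts are uncertain. Among 15 tested chaperonins, small heat shock proteins and heat shock factors, androgen raised 10 and lowered 1 at 24 h, and raised 9 and lowered 1 at 72 h. HSPB1, a small heat shock protein, was the one lower in both (-0.43 and -0.35). SNX631 raised 9 of the 15 and lowered 1, and Senexin B raised 6 and lowered 2.

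The 4 HSP90 and HSP70 genes of other compartments divided with inhibitor. HSPA5 and HSP90B1, the HSP70 and HSP90 of the endoplasmic reticulum, passed lower in all 4 inhibitor comparisons, by 0.34 to 0.86 and by 0.31 to 0.69 on the log2 scale, while the mitochondrial HSPA9 and TRAP1 passed higher in all 4, by 0.10 to 0.18 and by 0.33 to 0.44. With SNX631 HSPA5 fell from 1029.5 ± 21.6 CPM to 569 ± 17.1 CPM and HSP90B1 from 1266 ± 38.6 CPM to 787 ± 13.8 CPM (SD, n = 4). With androgen, 3 of the 4 passed higher at 24 h and 2 at 72 h.

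Among the steroid receptors, the clients of this machine, PGR passed lower with androgen in both experiments, from at least 10 counts in each vehicle library to at most 4 with R1881, too few for a fold. NR3C2 did not pass, and NR3C1, ESR1 and ESR2 were too low to test, with NR3C1, the glucocorticoid receptor, at 8 counts or fewer in every library. Of 7 genes known as targets of that receptor, all tested, androgen raised 3 and lowered 3 at 24 h, and at 72 h it raised 5 and lowered 2. ZBTB16, a zinc finger transcription factor, rose by 2.05 and 2.61 on the log2 scale, ERRFI1, an inhibitor of EGFR, by 1.59 and 2.34, and PER1, a clock gene, by 1.61 and 1.92. DUSP1, a phosphatase of MAP kinases, fell by 0.57 and 0.61, and KLF9, a transcription factor, by 0.13 and 0.24. TSC22D3 changed direction, passing lower at 24 h (log2 -0.25, edgeR FDR 0.00744) and higher at 72 h (log2 0.17, edgeR FDR 0.00236). DUSP1, KLF9 and TSC22D3 were named after their values were seen.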

How the data were processed

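Total RNA of 28 LNCaP libraries, made with a directional kit, was sequenced by the authors. The deposited values are estimated counts per gene with Ensembl identifiers, and 16.873% of the values above 0 are fractional. For exon lengths and positions the identifiers were matched to GENCODE 29 without their version. That release need not be the one behind the counts. Per the labels, the processing notes name FastQC, cutadapt 2.8, STAR 2.7.2b, featureCounts of Subread 2.0.3 and the builds GRCh38.p13 and GRCm39. The settings for strand and shared reads are not given in the sources used here. Besides 61815 human genes the table has 2 rows that are not human genes, with 0 counts, which were left out.

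The estimated counts were rounded and tested with edgeR 4.0.16 (quasi-likelihood, TMM scaling, minimum count 10 and minimum total 15, Benjamini-Hochberg over all genes tested) in R 4.3.3. Each experiment was fitted alone, with 12 and 16 libraries, and differences between experiments in all 28. Groups came from the labels. Totals of 9846595 to 33809419 counts and the spread between libraries set the precision. All 36 replicate pairs differed beyond sampling noise, with a chi-square per degree of freedom from 1.2 to 2.48. The common coefficient of variation by edgeR was 2.72% at 24 h and 2.38% at 72 h. Ratios were tested by exact permutation over libraries. Scripts were tested on simulated data. Alternatives were DESeq2 1.42.0, other scalings, no filter, a replicate block, looser limits, all libraries in one fit, and leaving out each library.

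The members, gene lists and tests were chosen with earlier results of these data known. The lists are HSP90 co-chaperones, other FKBP immunophilins, the cytosolic HSP70 system, chaperonins with small heat shock proteins and heat shock factors, HSP90 and HSP70 of other compartments, steroid receptors, glucocorticoid receptor targets, and markers of luminal prostate and of other cells. All members were named, with up to 4 genes of a list that were called in both experiments in one direction, and the 5 genes nearest to FKBP5 in profile. Some genes that this rule and the lists cover are not reported here. Other list genes were named after their values were seen. Promoters were read from RefSeq on GRCh38.p14 and gene positions from GENCODE 29.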

Additional observations from a re-analysis of the deposited data

Results flagged for a closer look

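The 8 members and 2 paralog ratios were each examined in the 4 groups of 4 libraries, which gave 32 and 8 tests. In 3 of the 32, and in none of the 8, one library lay apart from the others by more than Dixon's 95% limit for the gap over the range, and chance gives about 1 in 20. FKBP4 with vehicle at 72 h had a gap of 0.846 of the range, with replicate 3 low at 395 CPM. FKBP4 with R1881 at 72 h had 0.982, with replicate 4 high at 490.1 CPM. STIP1 with vehicle at 72 h had 0.889, with replicate 1 high at 268 CPM.

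An effect of a member differed between the experiments by edgeR in 5 of 24 tests. Of all genes, 7.54% passed for the androgen change, 2.21% for the inhibitor change without R1881 and 2.72% for that with it. None of 16 interactions of androgen and inhibitor within an experiment passed, where 2.09% of genes did at 24 h and 7.09% at 72 h. Of the 16, 2 at 24 h and 5 at 72 h had an unadjusted p under 0.05, and 1 passed by DESeq2. For the counts by unadjusted p and by DESeq2 no share of all genes was taken. The androgen change of PTGES3 at 72 h minus that at 24 h was -0.18 on the log2 scale. The SNX631 change minus the Senexin B change was 0.20 for DNAJA1 without R1881, and with R1881 it was 0.16 for HSP90AA1, 0.21 for PTGES3 and 0.18 for DNAJA1. Compound, time, androgen dose and run cannot be told apart in these differences.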

How the results depend on the processing

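Counts of members were most open to the limit used. No share of all genes was taken at the 0.05 limit or by DESeq2. The counts in this paragraph therefore show only how they move with the setting. With the FDR limit at 0.05 and any fold, androgen moved 5 members at 24 h, 7 with Senexin B, 6 at 72 h and 6 with SNX631, Senexin B moved 6 and 2 with R1881, SNX631 moved 8 and 7 with R1881, the interaction at 72 h moved 2, the difference in androgen change 2, and the differences between inhibitors 1 and 5 with R1881. At an FDR under 0.01, Senexin B moved 5 members by DESeq2 and 5 with all 28 libraries in one fit, the interaction at 72 h moved 1 with library totals and 1 by DESeq2, and the difference in androgen change moved 2 with no filter. Leaving out 1 library, these counts ran from 2 to 5, from 0 to 1 and from 1 to 2.

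With library totals the split of called genes at 72 h went from 1559 higher and 1626 lower to 1299 and 2121 with androgen, and from 1619 and 1924 to 1311 and 2435 in the presence of SNX631, and all-gene medians shifted by -0.10 and -0.11. Directions that reversed with library totals were those of the androgen change of HSP90AA1 (-0.0725 at 24 h, -0.052 at 72 h), of HSPA8 (-0.054 at 24 h, -0.0559 with Senexin B) and of DNAJA1 with SNX631 (-0.0446), of the Senexin B change of STIP1 (-0.02) and, with R1881, of HSP90AB1 (-0.00556) and PTGES3 (-0.0026), and of the difference in androgen change of HSP90AB1 (-0.026) and DNAJA1 (-0.02). With no filter they were HSP90AA1 with androgen at 24 h (-0.0017) and with SNX631 (0.00602), HSPA8 with androgen and SNX631 (0.0292) and DNAJA1 with SNX631 and R1881 (0.0144). The last pair also reversed by DESeq2 (0.01 and 0.0018) and in one fit of all libraries (0.01 and 0.00665), and HSPA8 with DESeq2 size factors (0.0044). None of these changes had passed, and the cause was not tested. STIP1 with androgen and Senexin B did not pass with library totals (edgeR FDR 0.011).

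Leaving out 1 library reversed changes near 0: HSP90AA1 (-0.0049 to 0.037) and HSP90AB1 (-0.031 to 0.0045) with androgen at 24 h, STIP1 with Senexin B (-0.0015 to 0.047), the HSPA8 interaction at 24 h (-0.033 to 0.0095), HSPA8 with androgen and SNX631 (-0.010 to 0.0077), DNAJA1 with SNX631 and R1881 (-0.020 to 0.013), the difference in androgen change of HSP90AB1 (-0.021 to 0.012) and DNAJA1 (-0.017 to 0.028), and that between inhibitors of FKBP4 (-0.020 to 0.047) and HSP90AB1 (-0.0018 to 0.055). The log2 ratio of HSP90AA1 to HSP90AB1 ran from -0.011 to 0.0036 with SNX631 and from -0.0057 to 0.016 with R1881 as well, and that of FKBP5 to FKBP4 from -0.047 to 0.0031 there.

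Replicate numbers did not pair the libraries: deviations of same-numbered libraries correlated at -0.019 to 0.085 at 24 h and -0.058 to 0.073 at 72 h, and 11 of 28 libraries correlated best with their own number. With a replicate block 3 members instead of 2 passed with Senexin B, PTGES3 being the third (edgeR FDR 0.00639), and no other call of a member changed.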
